A study of Mus musculus with 6 samples.

Results

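Mural cells wrap the endothelial tube of small vessels as pericytes and that of larger vessels as smooth muscle cells, and sorts of skin mesenchyme can carry them along because they share surface proteins and contractile genes with other stromal cells. The 8 genes described here, Rgs5, Abcc9, Cspg4, Mcam, Des, Higd1b, Vtn and Anpep, are used as markers of these cells, and were taken by symbol from the 24529 genes of the deposited table. Each symbol matched a single gene. The libraries came from 3 mesenchymal populations sorted from dorsal skin of CD1 female mice aged 16 days, in early catagen, when follicles start to regress. Dermal sheath (DS) cells line the outside of the follicle, dermal papilla (DP) cells sit at its base, and dermal fibroblasts (DF) fill the skin around it. All mice were of a single strain with no allele or treatment named, and each population had 2 biological replicates, 6 libraries in all. The sources used here do not name the gate of the sort or the number of mice per library, so it is not known whether any of the 8 genes was used for sorting. The question was how much of this mural set each sort contained, and whether its genes moved together.

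Values are RPKM, read counts scaled by transcript length and by the mapped reads of the library, so levels can be set side by side between genes. Markers of each label separated the populations, though not every listed marker did. Acta2, the smooth muscle actin gene that marks the sheath, was at 985 and 1098 RPKM in DS, against 2.08 and 2.40 RPKM in DF, and the papilla factor Lef1 averaged 333 ± 5.49 RPKM in DP, against 11.1 ± 0.0117 RPKM in DF (SD, n = 2 libraries each, here and below). Lum, a dermal fibroblast gene, averaged 482 RPKM in DF, 3.17 RPKM in DS and 0.372 RPKM in DP. Other listed markers went against their label. Corin, a papilla gene, averaged 524 RPKM in DS and 214 RPKM in DP. Of the fibroblast genes, Pdgfra averaged 591 RPKM in DS and 110 RPKM in DF, and Dpp4 averaged 208 RPKM in DP and 71.9 RPKM in DF. Of the 24529 genes, 14664 had 2 or more libraries at 1 RPKM or above and entered limma on the log2(RPKM + 1) scale, and 6 of the 8 markers were among them. Calls needed an adjusted p under 0.05 (Benjamini-Hochberg, 14664 genes) together with a log2 difference of 1 or more in size. Read totals are not given, and library depth relative to DF replicate 2, estimated from ratios of low values, was 0.39 and 0.46 in DS, 0.63 and 0.51 in DP and 0.71 and 1 in DF. Over the whole table the median difference was 0.532 in DS against DF, 0.712 in DP against DF and -0.169 in DS against DP, and median-ratio scaling, which brings the typical gene of each library to a shared level, made these 0.003, 0.016 and 0.004. Calls over all genes in DS against DF were 3027 higher and 872 lower as deposited and 1174 and 1457 after that scaling. In DP against DF they were 4613 and 1007 as deposited and 1369 and 1911 after it, and in DS against DP 1381 and 1876 as deposited and 1691 and 1439 after it. With 2 libraries against 2, the smallest two-sided p of an exact permutation test is 0.333, and the p-values given use a spread pooled over populations and moderated over genes. The comparisons share libraries and are not independent of each other.

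The markers did not move as a block. Mcam was high in DS alone, Cspg4 was high in DP and DS, Anpep was high in DS and DF, and Rgs5 was high in DP and in 1 of the 2 DS libraries. Abcc9 and Des were low throughout and had their lowest means in DS, and Higd1b and Vtn did not exceed 1.49 RPKM. The 8 genes summed to 389 and 366 RPKM in DS, 167 and 187 RPKM in DP and 172 and 111 RPKM in DF. Anpep, Mcam and Cspg4 made up 96.6% and 99.4% of that sum in DS, 85.9% and 91.1% in DP and 94.4% and 92.6% in DF. The other 5 genes summed to 13.3 and 2.36 RPKM in DS, 23.6 and 16.6 RPKM in DP and 9.59 and 8.26 RPKM in DF. In bulk libraries, fewer cells of a type and less RNA per cell cannot be told apart.

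**Figure D1:**
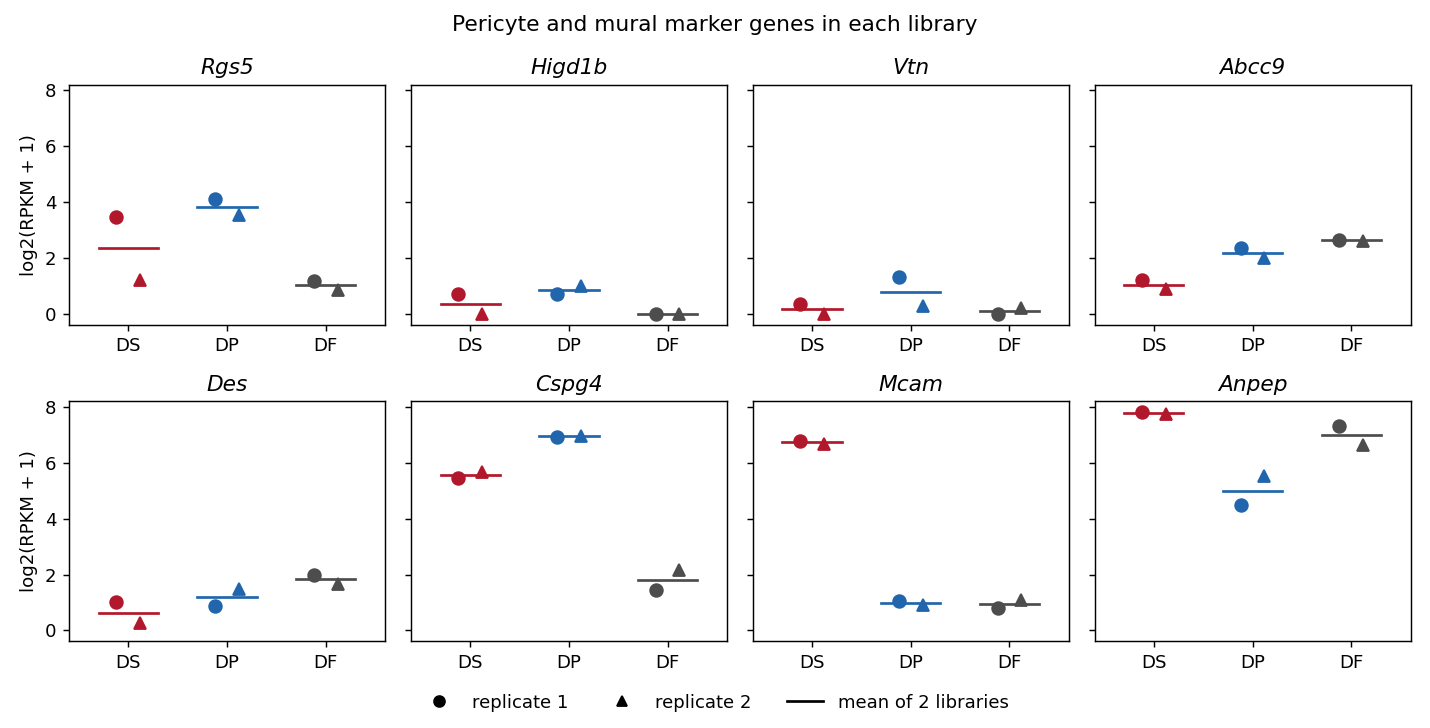
Level of each of the 8 marker genes as log2(RPKM + 1), by population, with a circle for replicate 1, a triangle for replicate 2 and a line at the mean of the 2 libraries. Mcam stands high in DS only, Cspg4 in DP and DS, and Rgs5 separates the 2 DS libraries, at 10.02 RPKM in replicate 1 and 1.33 RPKM in replicate 2.

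Against DF, 2 of the 6 tested markers were higher in DS (Cspg4 and Mcam) and 2 were lower (Abcc9 and Des), beside 26.6% of all tested genes called, 20.6% higher and 5.95% lower. In DP against DF, 2 were higher (Cspg4 and Rgs5) and 1 was lower (Anpep), beside 38.3% of all tested genes called, 31.5% higher and 6.87% lower. With median-ratio scaling that became 1 higher (Cspg4) and 2 lower (Anpep and Abcc9). Between DS and DP, 2 were higher in DS (Mcam and Anpep) and 2 were lower (Cspg4 and Abcc9), beside 22.2% of all tested genes called, 9.42% higher and 12.8% lower. The 6 tested markers had a median difference of 1.06 in DS against DF, -0.22 in DP against DF and -0.84 in DS against DP. As the members moved in different directions, these medians describe no common shift.

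Starts of genes for which the populations or libraries differed most are shown here. A region of 250 bases before to 50 bases after the annotated start (RefSeq, GRCm38.p6) was at hand for 7 of the 8 genes, all but Higd1b. Capitals mark matches to the GC box GGGCGG, the letters bound by Sp family factors, on either strand.
Mcam, chr9:44134408-44134707, plus strand: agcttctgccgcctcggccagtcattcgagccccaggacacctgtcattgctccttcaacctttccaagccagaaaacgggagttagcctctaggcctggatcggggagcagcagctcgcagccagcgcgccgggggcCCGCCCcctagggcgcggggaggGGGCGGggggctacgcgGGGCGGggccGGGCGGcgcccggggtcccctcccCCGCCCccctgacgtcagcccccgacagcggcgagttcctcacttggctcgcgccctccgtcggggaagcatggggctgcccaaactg
Cspg4, chr9:56864854-56865153, plus strand: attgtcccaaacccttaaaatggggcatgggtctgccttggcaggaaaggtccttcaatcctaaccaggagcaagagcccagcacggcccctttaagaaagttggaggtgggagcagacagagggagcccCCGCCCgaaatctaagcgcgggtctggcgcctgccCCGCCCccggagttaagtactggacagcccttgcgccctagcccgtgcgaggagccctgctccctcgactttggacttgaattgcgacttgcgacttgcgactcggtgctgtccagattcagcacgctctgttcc
Rgs5, chr1:169655251-169655550, plus strand: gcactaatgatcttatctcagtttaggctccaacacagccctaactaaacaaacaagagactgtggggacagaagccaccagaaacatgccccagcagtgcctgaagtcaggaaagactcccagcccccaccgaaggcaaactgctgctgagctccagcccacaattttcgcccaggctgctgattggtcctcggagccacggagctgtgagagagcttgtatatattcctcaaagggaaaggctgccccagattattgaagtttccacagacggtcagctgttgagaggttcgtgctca
The Mcam region held 5 GC boxes and was 72.7% G and C, the Cspg4 region held 2 and was 60% G and C, and the Rgs5 region held none and was 52.3% G and C. A GC box was found in 5 of the 7 regions, against 35.7% of all 32851 regions in the table. The TATA box letters TATAAA were found in 1 of the 7, that of Vtn, against 13.6% of all regions. The CArG box, the site of serum response factor in smooth muscle genes, was found in none of the 7, against 1.63% of all regions. These are matches of letters in a short window on the reference strain.

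Mcam (gene ID 84004) encodes CD146, an adhesion molecule of the immunoglobulin superfamily found on endothelial and mural cells. Its level was 110 and 101 RPKM in DS, 1.09 and 0.878 RPKM in DP, and 0.759 and 1.12 RPKM in DF. Both DS libraries lay far above the other 4, and the DP and DF libraries overlapped. It averaged 105 ± 6.57 RPKM in DS and 0.94 ± 0.256 RPKM in DF, 5.78 higher on the log2 scale (SE 0.20, adjusted p = 8.075e-05 by limma). DS exceeded DP by 5.75 (adjusted p = 5.917e-05). DP minus DF was 0.04, with a 95% interval of -0.46 to 0.53, and was not called. Mcam was the member with the largest gap between any pair of populations, and 4.03% of all listed genes had a higher mean than Mcam in DS, against 53.5% in DF.

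Of the listed binding partners of Mcam, the galectin genes were highest in DS, as Mcam was, and Lama4 was lowest there. Lama4, the laminin alpha 4 chain of vessel walls and a reported ligand of CD146, was lower in DS at 11.3 and 5.01 RPKM, against 121 and 142 RPKM in DP and 78.1 and 110 RPKM in DF (DS minus DF -3.44, adjusted p = 0.001652). Lgals3, a galectin, was higher in DS, at 435 ± 1.05 RPKM, against 57.5 ± 2.19 RPKM in DF (2.90, adjusted p = 0.0002639). Lgals1, another galectin, averaged 1068 ± 41.9 RPKM in DS, 435 ± 3 RPKM in DP and 427 ± 36.2 RPKM in DF (DS minus DF 1.32, adjusted p = 0.0009537, not called with median-ratio scaling). The related adhesion genes split between the follicle populations. Bcam averaged 10.6 ± 1.86 RPKM in DS and 1.08 ± 0.831 RPKM in DF (DS minus DF 2.53, adjusted p = 0.005661), and Alcam averaged 23.4 ± 4.98 RPKM in DP and 2.08 ± 0.0102 RPKM in DF (DP minus DF 2.97, adjusted p = 0.0006075).

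Cspg4 (gene ID 121021) encodes NG2, a transmembrane chondroitin sulfate proteoglycan of pericytes and of glial progenitors. Its level was 42.7 and 50 RPKM in DS, 121 and 124 RPKM in DP and 1.71 and 3.49 RPKM in DF. The 3 populations did not overlap, with DP highest and DF lowest. DS exceeded DF by 3.76 on the log2 scale (SE 0.26, adjusted p = 0.0004503) and DP exceeded DF by 5.15 (SE 0.26, adjusted p = 0.0001922). DS minus DP was -1.38 (adjusted p = 0.01269), a call that ended without DP replicate 1 (adjusted p = 0.06414), DP replicate 2 (0.06621) or DS replicate 1 (0.06912).

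Of the genes listed as partners of Cspg4, Fgf2, a growth factor that NG2 binds, ran in the same order, with means of 21.8 ± 3.46 RPKM in DS, 59.7 ± 2.86 RPKM in DP and 9.98 ± 1.41 RPKM in DF. Fgf2 was called in each comparison, at 1.05 between DS and DF (not called with median-ratio scaling), 2.47 between DP and DF and -1.42 between DS and DP. Mpdz and Grip1 encode PDZ scaffold proteins that bind the NG2 tail. Grip1 was lower in DS than in DF (-2.69, adjusted p = 0.002241), at 0.659 ± 0.201 RPKM in DS and 9.70 ± 1.62 RPKM in DF, and Mpdz was lower in DP than in DF (-1.48, adjusted p = 0.001386), at 17 ± 1.11 RPKM in DP and 49.2 ± 4.94 RPKM in DF.

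Anpep (gene ID 16790) encodes aminopeptidase N (CD13), a surface peptidase of pericytes that fibroblasts and myeloid cells also carry. Its level was 223 and 213 RPKM in DS, 21.2 and 45.5 RPKM in DP and 159 and 98.4 RPKM in DF. Both DP libraries lay below the rest, and those of DS lay above those of DF. DP minus DF was -1.97 (SE 0.40, adjusted p = 0.009184), and DS was higher than DP by 2.77 (SE 0.40, adjusted p = 0.004648). The DP minus DF call ended without DF replicate 1 (adjusted p = 0.05163). DS minus DF was 0.79 with a 95% interval of -0.19 to 1.78 and was not called, except when each library was rescaled to the same sum (1.275, adjusted p = 0.04661). Anpep was the most abundant of the 8 genes in DS and in DF, where 1.71% and 1.88% of all listed genes had a higher mean.

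Of the other cell surface peptidases, Mme ran in the same order of populations as Anpep and Dpp4 and Enpep were highest in DP. Mme, which encodes neprilysin, was highest in DS at 327 and 278 RPKM, against 3.42 and 1.76 RPKM in DP and 20.3 and 34.1 RPKM in DF (DS minus DF 3.47, adjusted p = 0.00115, DS minus DP 6.43, adjusted p = 0.0001509). Dpp4 was at 0.3 and 0.377 RPKM in DS, 228 and 188 RPKM in DP and 62.4 and 81.5 RPKM in DF. Enpep, aminopeptidase A, is itself used as a pericyte marker. It was at 0.313 and 0.5 RPKM in DS, 11.7 and 8.16 RPKM in DP and 0.106 and 0.429 RPKM in DF, and was called higher in DP than in DF (3.10, adjusted p = 0.0006313).

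Rgs5 (gene ID 19737) encodes a regulator of G protein signalling that shortens the response of vascular receptors and is widely used to find pericytes. Its level was 10.02 and 1.33 RPKM in DS, 16.4 and 10.6 RPKM in DP and 1.275 and 0.813 RPKM in DF. DS replicate 1 was close to DP replicate 2, while DS replicate 2 was close to DF replicate 1. Both DP libraries were above all the others. The gap between the DS replicates was 2.24 on the log2 scale, and 1.66% of all tested genes had a larger one in DS. DP exceeded DF by 2.81 (SE 0.72, adjusted p = 0.02027). The DP minus DF call did not hold under median-ratio scaling (2.199, adjusted p = 0.06813), nor with rescaling that leaves the 100 highest genes out of the sum (0.05452), nor without either DF replicate (0.07459 and 0.07888) nor without either DP replicate (0.08809 and 0.05533). DS minus DF was 1.32 with a 95% interval of -0.48 to 3.11, and DS minus DP was -1.49 with an interval of -3.28 to 0.31. Neither was called with all libraries. Without DS replicate 2, DS minus DF was 2.44 (adjusted p = 0.01362), and without DS replicate 1, DS minus DP was -2.61 (adjusted p = 0.01091).

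Most endothelial markers were higher in the same DS and DP replicate as Rgs5. Pecam1, an adhesion gene that defines endothelium, was at 2.74 and 0.23 RPKM in DS, 3.47 and 1.43 RPKM in DP and 0.627 and 0.397 RPKM in DF. Cdh5, the endothelial cadherin gene, was at 2.16 and 0.22 RPKM in DS, 2.97 and 1.18 RPKM in DP and 0.765 and 0.323 RPKM in DF. For both genes the order of the libraries was DP replicate 1, DS replicate 1, DP replicate 2, DF replicate 1, DF replicate 2 and DS replicate 2, and Rgs5 was also highest in the first 3 of these. In DS, 14 of the 16 endothelial genes (87.5%) were higher in replicate 1 than in replicate 2, against 46.6% of all tested genes. In DP it was 12 of 16 (75%), against 51.1% of all tested genes. In DF it was 7 of 16 (43.8%), against 25.3% of all tested genes, with Rgs5 higher in replicate 1 there too. These shares are over unlike sets, as only 12 of the 16 genes passed the filter. Of the 16, 3 were at 0 in DS replicate 2. The 16 genes summed to 81.1 and 55.5 RPKM in DS, 56.1 and 38.7 RPKM in DP and 11.9 and 12.7 RPKM in DF. Of those sums, 38.0 and 38.3 RPKM in DS came from Erg, which was level between the DS replicates, and 21.6 and 18.7 RPKM in DP came from Flt1. Emcn, an endothelial sialomucin, was at 2.12 RPKM in DS replicate 1 and at 0 in DS replicate 2. The part of these cells in the level of Rgs5 was not tested.

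Most of the 8 members were also higher in DS replicate 1, while the further pericyte markers as a set were not. The median log2 gap between the DS replicates was 0.34 for the members, -0.05 for the further markers and -0.01 over all tested genes. In DS, 7 of the 8 members (87.5%) were higher in replicate 1, but 9 of the 21 further pericyte markers were (42.9%), against 46.6% of all tested genes. Of the 7 members, Mcam (gap 0.13) and Anpep (0.07) were nearly level. Replicate 1 was also higher in DS for 7 of the 9 papilla genes (77.8%, median gap 0.21). So it was for 9 of the 15 leukocyte genes (60%, 0.43). For Schwann cell and melanocyte genes it was 1 of 8 (12.5%, -0.16) and 2 of 6 (33.3%, -0.04). Some of these lists, unlike all tested genes, include genes that did not pass the filter. Higd1b (gene ID 75689), a mitochondrial protein gene expressed in pericytes, was at 0.629 and 0 RPKM in DS, 0.648 and 0.983 RPKM in DP and 0 and 0 RPKM in DF. Vtn (gene ID 22370), which encodes the adhesion protein vitronectin of plasma and matrix, was at 0.269 and 0 RPKM in DS, 1.49 and 0.216 RPKM in DP and 0 and 0.157 RPKM in DF. Neither gene passed the filter. Without the filter, the Higd1b difference for DP minus DF was 0.85 (adjusted p = 0.04562), under the fold minimum, and no Vtn comparison passed (lowest adjusted p = 0.1827, DP minus DF). Gja4, the connexin 37 gene of arterial cells, was at 0.497 and 0 RPKM in DS, while Heyl, a Notch target gene, was at 1.07 and 2.19 RPKM in DS. The read counts behind such values are unknown, and a value listed at 0 does not show that the transcript was absent.

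**Figure D2:**
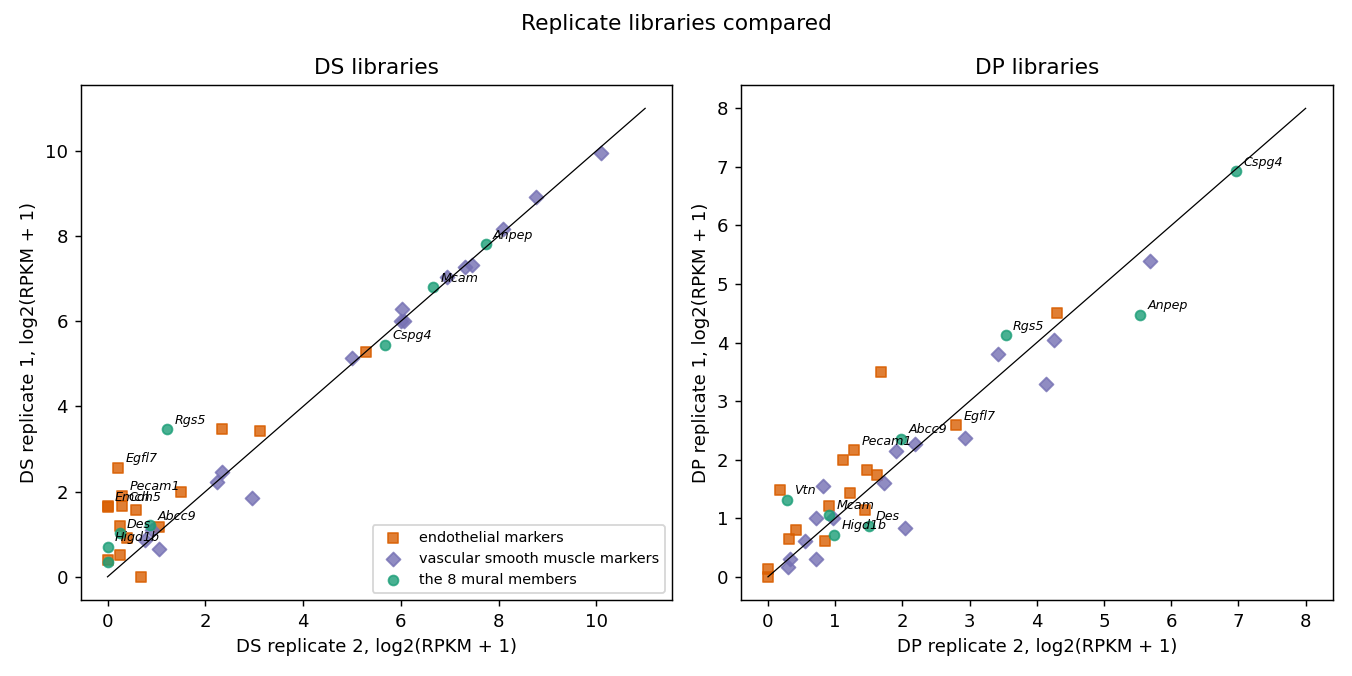
Replicate 1 (vertical) against replicate 2 (horizontal) in log2(RPKM + 1) for the DS libraries on the left and the DP libraries on the right, with the line of equal level. Most endothelial markers (squares) and Rgs5 lie above the line in DS, where 14 of 16 endothelial genes were higher in replicate 1, while Mcam, Cspg4, Anpep and the abundant smooth muscle markers (diamonds) lie near it.

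The relatives of these genes ranged from abundant to near 0. Rgs2, another regulator of G protein signalling, was at 14.3 and 10.2 RPKM in DS, 991 and 1108 RPKM in DP and 16.3 and 35.9 RPKM in DF, and exceeded DF in DP by 5.37 (adjusted p = 0.0003778). Rgs4, which is also used to mark pericytes, was at 6.36 and 4.02 RPKM in DS, 7.10 and 3.48 RPKM in DP and 1.89 and 2.37 RPKM in DF, and was called in none of the 3 comparisons. Rgs16 did not exceed 1.88 RPKM. Higd1a, the widely expressed relative of Higd1b, averaged 19.4 ± 0.23 RPKM in DS, 16.4 ± 1.96 RPKM in DP and 24 ± 4.79 RPKM in DF, and was called only with median-ratio scaling, lower in DP than in DF. Higd1c was at 0 in all libraries but DP replicate 2 (0.255 RPKM). Of the receptors for vitronectin, the integrin chains Itgav, Itgb3 and Itgb5 were higher in DS than in DP (1.85, 2.11 and 1.23), and Itgb8 was higher in DP than in DF (2.33, adjusted p = 0.001231).

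Abcc9 (gene ID 20928) encodes SUR2, the regulatory subunit of the vascular ATP-sensitive potassium channel, whose pore is made by Kcnj8. Its level was 1.32 and 0.84 RPKM in DS, 4.14 and 2.95 RPKM in DP and 5.33 and 5.13 RPKM in DF. The 3 populations did not overlap, with DS lowest. DS was lower than both others, with DS minus DF at -1.59 (SE 0.24, adjusted p = 0.004752) and DS minus DP at -1.13 (SE 0.24, adjusted p = 0.01789). The DS minus DP call was lost under median-ratio scaling, where the difference was -0.93 and under the fold minimum, and without DP replicate 1 (adjusted p = 0.1011) or DS replicate 2 (0.09278). DP minus DF was -0.47 with a 95% interval of -1.06 to 0.12, and was called with median-ratio scaling (-1.16, adjusted p = 0.01647).

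Kcnj8 was at 0.989 and 0 RPKM in DS, 6.24 and 1.42 RPKM in DP and 6.65 and 8.89 RPKM in DF. It was lower in DS than in DF, as Abcc9 was (-2.63, adjusted p = 0.01808). Both genes of the channel had their highest level in DF, the population with the lowest Rgs5. The pore and regulatory subunits of the pancreatic channel form were at 0 in every library for Kcnj11 and in all but DP replicate 1 (0.175 RPKM) for Abcc8.

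Des (gene ID 13346) encodes desmin, the intermediate filament protein of muscle that pericytes also contain. Its level was 1.03 and 0.192 RPKM in DS, 0.834 and 1.82 RPKM in DP and 2.99 and 2.15 RPKM in DF. The DF libraries were highest, and DS and DP overlapped. DS minus DF was -1.19 (SE 0.36, adjusted p = 0.04204). That call ended with a pseudocount of 0.1 (0.06294), with no filter (0.06624), with rescaling to the same sum (0.08517), and without DF replicate 1 (0.1763), DF replicate 2 (0.07634) or DS replicate 2 (0.1638), as adjusted p. Acta1 and Ckm, markers of skeletal muscle, another source of desmin, stayed at or under 1.94 and 0.126 RPKM in all libraries, and 9 of the 15 skeletal muscle genes stayed under 1 RPKM throughout. Tnnt3, a troponin gene of fast muscle, was at 0.191 and 0.86 RPKM in DS, 1.29 and 2.83 RPKM in DP and 8.07 and 12.7 RPKM in DF, highest in DF as Des was (DS minus DF -2.90, adjusted p = 0.003358). Mylpf, a myosin light chain gene of the same fibres, was at 1.57 and 13.5 RPKM in DP, where Des was at 0.834 and 1.82 RPKM. Neb, another gene of the skeletal muscle list, was lowest in DF, opposite to Des. Neb was at 3.98 and 2.88 RPKM in DS, 3.55 and 2.97 RPKM in DP and 0.772 and 1.36 RPKM in DF. It exceeded DF in DS (1.11, adjusted p = 0.01803) and in DP (1.06, adjusted p = 0.01586). Neither Neb call held after median-ratio scaling. Against DF, the 4 tested genes of that list thus gave 1 higher and 1 lower in both DS and DP. The part of muscle RNA in the level of Des was not tested.

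The low Des stood beside a high level of other smooth muscle genes in DS. Of the 16 vascular smooth muscle genes, all tested, 11 were higher in DS than in DF and 0 were lower, beside 20.6% and 5.95% of all tested genes, with a median difference of 2.33 against 0.532 over all genes. Against DP, 13 were higher in DS and 2 were lower, beside 9.42% and 12.8% of all tested genes. Acta2, Tagln, Mylk and Itga8 of this list are also listed as dermal sheath markers. These counts therefore cannot tell vascular smooth muscle from sheath cells. Actg2, the enteric smooth muscle actin gene, was higher in DS than in DF by 7.10 and Tpm2, a tropomyosin gene, by 5.77. Levels within the list ranged widely. Smtn, which encodes smoothelin, was at 63.0 and 66.0 RPKM in DS, against 46.1 and 57.2 RPKM in DF, and was not called (0.32, adjusted p = 0.2202). Myh11, smooth muscle myosin heavy chain, was at 4.51 and 4.06 RPKM in DS, against 0.541 and 0.595 RPKM in DF (1.75, adjusted p = 0.006328), and Cnn1, calponin, was at 2.58 and 6.74 RPKM in DS, against 0.0267 and 0.151 RPKM in DF (2.28, adjusted p = 0.00684). The 2 genes lower in DS than in DP were Myocd (-2.86) and Sncg (-3.33). Myocd, the coactivator of smooth muscle genes, was at 0.583 and 1.08 RPKM in DS, 8.84 and 16.5 RPKM in DP and 0.17 and 0.12 RPKM in DF.

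Several partners of desmin were higher in DS or DP than in DF. Synm, which encodes synemin, an intermediate filament protein that joins desmin and vimentin filaments, was at 20.1 and 19.5 RPKM in DS, 4.63 and 4.18 RPKM in DP and 1.43 and 1.85 RPKM in DF, and was higher in DS than in DF by 2.99 (adjusted p = 0.0003581). Cryab, the small heat shock protein that binds desmin, averaged 395 ± 26.5 RPKM in DS, 7.25 ± 0.608 RPKM in DP and 73.8 ± 1.45 RPKM in DF. Nes, which encodes nestin, was highest in DP at 25.3 and 28.8 RPKM, against 1.09 and 1.39 RPKM in DF (3.65, adjusted p = 0.0002015). Vim, the vimentin of mesenchymal cells, lay between 521 and 2715 RPKM. Over the 40 genes listed as partners or relatives of the 8 members, 37 were tested, and 17 were higher and 5 lower in DS than in DF (9 and 7 with median-ratio scaling), 12 higher and 6 lower in DP than in DF (7 and 9), and 13 higher and 10 lower in DS than in DP under both scalings. As deposited, 26.6%, 38.3% and 22.2% of all tested genes were called in these comparisons.

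**Figure D3:**
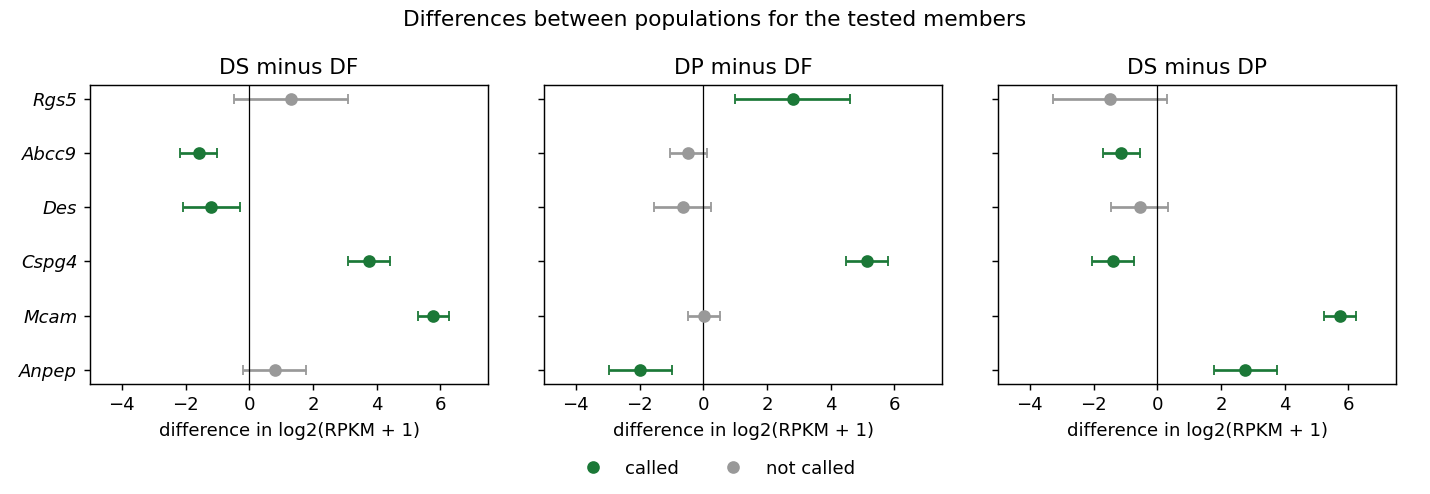
Difference in log2(RPKM + 1) between populations for the 6 tested markers, with 95% intervals from limma, green where called. Mcam and Cspg4 lie far to the right for DS minus DF at 5.78 and 3.76, Abcc9 and Des lie to the left, and the interval of Rgs5 spans 0 in both comparisons that include DS.

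A further 21 pericyte markers were divided too. Of the 18 that were tested, 5 were higher and 5 lower in DS than in DF, beside 20.6% and 5.95% of all tested genes. In DP against DF 9 were higher and 2 lower (4 and 3 with median-ratio scaling), beside 31.5% and 6.87%, and in DS against DP 4 were higher and 6 lower, beside 9.42% and 12.8%. Pdgfrb, the receptor that recruits pericytes to vessels, was at 64.0 and 70.4 RPKM in DS, 50.3 and 46.5 RPKM in DP and 38.4 and 39.3 RPKM in DF. It was abundant in every library and called in no comparison. Its DS minus DF difference was 0.77 (adjusted p = 0.007097), under the fold minimum, and 0.15 with median-ratio scaling. Notch3, a receptor of mural cells, was between 0.731 and 2.78 RPKM throughout and was not called. Both DP libraries lay above the others, with differences under the fold minimum. DP minus DF was 0.93 (adjusted p = 0.01286) and DS minus DP was -0.82 (adjusted p = 0.03184). With median-ratio scaling these were 0.42 and -0.65. Cox4i2, a lung and pericyte form of a cytochrome oxidase subunit, was at 15.3 and 20.5 RPKM in DS, 4.33 and 4.48 RPKM in DP and 1.896 and 4.45 RPKM in DF (DS minus DF 2.24, adjusted p = 0.005295).

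Different markers of this set led in each population. In DS, Epas1, a hypoxia-inducible transcription factor, was at 220 and 236 RPKM, against 19.6 and 19.2 RPKM in DP and 3.98 and 3.86 RPKM in DF (DS minus DF 5.54, adjusted p = 5.021e-05), and S1pr3, a sphingosine phosphate receptor, was at 26.9 and 34.8 RPKM, against 0.193 and 0.499 RPKM in DF (4.56). Tbx18, a transcription factor of pericytes and of follicle mesenchyme, averaged 11.9 ± 1.18 RPKM in DS, 4.92 ± 0.18 RPKM in DP and 0.874 ± 0.195 RPKM in DF, and was called in each comparison. In DP, the calcium channel gene Trpc6 was at 7.41 and 8.06 RPKM, against 0.149 and 0.451 RPKM in DF (2.76, adjusted p = 0.0004683), and Steap4, a metalloreductase gene, was at 11.9 and 8.62 RPKM, against 2.72 and 3.37 RPKM in DF (1.47, not called with median-ratio scaling). In DF, Ndufa4l2, a mitochondrial protein gene, was higher than in DS (DS minus DF -3.76, adjusted p = 0.0004635), at 34.7 ± 0.861 RPKM in DS and 483 ± 22.8 RPKM in DF. The surface gene Cd248 (endosialin) averaged 27 ± 3.65 RPKM in DS and 191 ± 16.7 RPKM in DF (-2.78), and Art3 averaged 3.39 ± 0.324 RPKM in DS and 27.1 ± 0.149 RPKM in DF (-2.68).

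**Figure D4:**
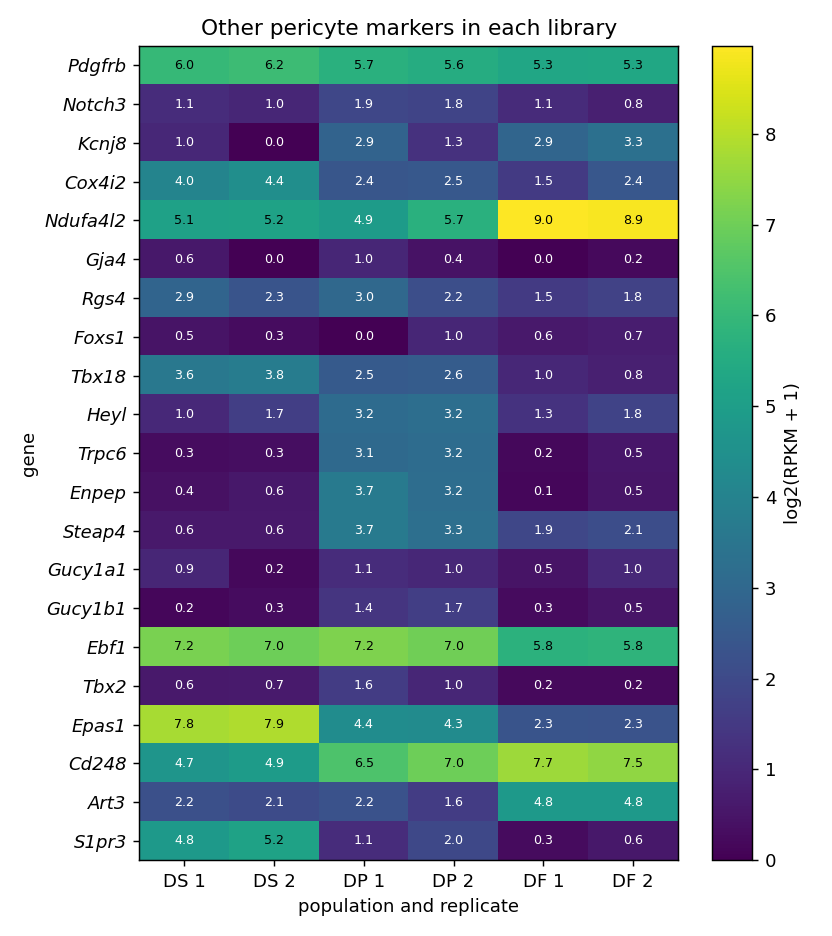
Level of 21 further pericyte markers as log2(RPKM + 1), with libraries in columns (DS, DP and DF, replicates 1 and 2) and genes in rows, colour and number both giving the level. No population holds the whole set, with Epas1 and S1pr3 high in DS, Trpc6, Enpep and Steap4 in DP, and Ndufa4l2 and Art3 in DF.

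Markers of other cell types were examined in the same libraries. Endothelial genes were called higher in DS than in DF for 2 of 12 tested (Erg at 38.0 and 38.3 RPKM in DS, against 0.452 and 1.89 RPKM in DF, and Ptprb) and lower for 0, and higher in DP than in DF for 4 of 12 (1 higher and 1 lower with median-ratio scaling). These counts are near the share of all tested genes called higher, 20.6% and 31.5%. Leukocyte genes, whose myeloid members share cells with Anpep, were lower in DS than in DF for 7 of 10 tested and lower in DP than in DF for 8 of 10, beside 5.95% and 6.87% of all tested genes. The 15 leukocyte genes summed to 26.5 and 18.5 RPKM in DS, 15.5 and 15.4 RPKM in DP and 54.8 and 79.3 RPKM in DF. Ptprc, the general leukocyte marker, was at 0.0171 and 0.036 RPKM in DS, 0.155 and 1.41 RPKM in DP and 0.287 and 0.599 RPKM in DF. Its DP and DF libraries overlapped, with the higher mean in DP, and it did not pass the filter. Between DS and DP, where Anpep was higher in DS, 1 of the 10 tested leukocyte genes was higher in DS and 0 were lower. The shares of all tested genes were 9.42% and 12.8%, and the other 9 leukocyte genes were not called. The 1 called was the myeloid gene Lyz2, at 8.77 and 4.93 RPKM in DS, 0.689 and 0.339 RPKM in DP and 4.37 and 9.06 RPKM in DF (DS minus DP 2.34, adjusted p = 0.009009). Cd68 was at 6.07 and 7.91 RPKM in DS, against 4.10 and 8.90 RPKM in DF, and was called in no comparison. Schwann cell genes, a further source of Cspg4, summed to 4.46 and 12.1 RPKM in DS, 26.8 and 21.5 RPKM in DP and 5.09 and 10.3 RPKM in DF. In DP against DF, 31.5% of all tested genes were higher and 6.87% lower. Of the 5 tested Schwann cell genes, 0 were lower and 2 were higher. These were S100b, a calcium-binding protein gene, at 13.4 and 13.7 RPKM in DP, against 0.626 and 1.91 RPKM in DF (2.74, adjusted p = 0.00189), and Erbb3, the neuregulin receptor (1.199, adjusted p = 0.0063, not called with median-ratio scaling). Sox10, which defines the lineage, was at 0.697 and 0 RPKM in DP, against 0.312 and 0.654 RPKM in DF. Melanocyte genes, which pigment cells of the follicle can add, summed to 58.3 and 68.3 RPKM in DS, 23.1 and 19.2 RPKM in DP and 32.9 and 48.7 RPKM in DF. Mitf, a transcription factor gene that other cells also use, gave 55.5 and 63.5 RPKM of the DS sums. The sum of the other 5 genes ran the other way, at 2.89 and 4.82 RPKM in DS, 7.59 and 5.32 RPKM in DP and 15.4 and 29.4 RPKM in DF. Of these 5, Tyr was highest in DP, at 5.66 and 3.83 RPKM, and overlapped between DS and DF. Of the 6 melanocyte genes, 1 was higher and 3 were lower in DS than in DF, beside 20.6% and 5.95% of all tested genes. The part of these cells in the levels of the markers was not tested.

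The genes closest to each member over the 6 libraries were sought among 10722 tested genes (10723 for Des) with at least 5 RPKM in some population, by the root mean square difference of log2(RPKM + 1) after centring each gene. For Rgs5 the nearest was Egfl7, a gene of the endothelial list (0.33), then Cfap69 (0.36) and Mtcl1 (0.38). For Mcam they were Palm3 (0.12), Acan (0.14) and Cdh13 (0.20), and for Cspg4 they were H4c17 (0.23), Rasgrp2 (0.24) and F5 (0.26). For Anpep they were Cdkn1c (0.25), Trhde (0.30) and Bcl11b (0.30), for Abcc9 H2-Q4 (0.10), Slc2a10 (0.14) and Rap2a (0.16), and for Des Usp2 (0.19), Khdrbs3 (0.23) and Prkca (0.24). No gene was the nearest of 2 members.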

How the data were processed

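RNA of sorted cells was amplified and sequenced by the authors, per the labels' protocols, with 2 libraries for each of DS, DP and DF. The deposited table gives RPKM per gene and library, made by the authors without pooling. Per the submitters' processing notes, the tools were Salmon (1.9.0) and DESeq2 (1.28.1) and the build GRCm39, with no role stated. The sources used here do not give read totals, annotation or filters. The 8 members, the other lists and the tests were chosen with earlier results of these data known.

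All 6 libraries entered 1 linear model per gene on log2(RPKM + 1), a coefficient for each population, fitted with limma (version 3.58.1, R 4.3.3; trended eBayes, prior df 2.62, residual df 3, two-sided, Benjamini-Hochberg over the 14664 genes of each comparison). A difference on this scale understates the change of low genes. SD is between 2 libraries in RPKM, SE and 95% intervals come from the model. Replicates are labelled biological, with no further detail. Relative depth was the most frequent ratio of low values to DF replicate 2, found at 67 to 137 genes. The procedure was tested on simulated data. Named genes were the members, defining markers, at most 4 called genes per list and comparison with the largest difference, and for each member the 3 genes of nearest pattern. Outside that rule, Gja4, Heyl, Cd248, Emcn, Cd68, Mylpf, Smtn, Itga8 and the partners Rgs4, Rgs16, Abcc8, Kcnj11, Vim, Higd1a, Higd1c, Itgav, Itgb3, Itgb5, Itgb8, Mpdz, Grip1, Fgf2, Lgals1, Lgals3, Alcam and Bcam were named after their values were seen. Each member's tests were repeated under 16 alternatives.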

Additional observations from a re-analysis of the deposited data

How the results depend on the processing

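Each choice was changed alone in 16 alternatives. The number of members called was 4, 3 and 4 for DS minus DF, DP minus DF and DS minus DP, beside 26.6%, 38.3% and 22.2% of all tested genes. The counts fell furthest with 1 library left out, in a fit where a lone library is assumed to vary like the others. These were DP minus DF without DF replicate 1 and DS minus DP without DP replicate 1. In both, the share of all tested genes called was lower too. Under the other alternatives the counts were within 1.5 times. For DP minus DF, 3 members were called with median-ratio scaling and with rescaling to the same sum. The shares of all tested genes called there were 22.4% and 67.4%. Small differences changed sign with scaling or a library left out. Mcam for DP minus DF was -0.38 with median-ratio scaling, -0.29 with the 100 highest genes left out of the sum and from -0.0993 (without DF replicate 1) to 0.171 (without DF replicate 2) with 1 library left out, -0.04 without DP replicate 1, and Abcc9 for DP minus DF was 0.11 with rescaling to the same sum, none of them called. Mcam and Cspg4 against DF in DS, Mcam against DP in DS, Cspg4 against DF in DP, Abcc9 against DF in DS and Anpep against DP in DS were called under all 16. The cause of the calls that ended was not tested. With a replicate block 3, 3 and 4 members were called, beside 26.2%, 38.1% and 21.6% of all tested genes. The Des call for DS minus DF ended there (adjusted p = 0.06706). Deviations of same-numbered libraries correlated across genes at -0.071 between DS and DF, -0.046 between DP and DF and -0.034 between DS and DP. With a single difference per population, these values cannot decide whether same-numbered libraries were paired. Des was not tested with a filter at 5 RPKM, and Higd1b and Vtn were tested with no filter only. Read counts are unknown, so how depth limits each gene was not measured.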
